A study of Mus musculus with 12 samples.

Results

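The genes described here are 33 genes of sterol and fatty acid synthesis, out of 32699 genes listed in each library of G1E-ER4 cells. They were chosen by symbol from a list of SREBP pathway and lipid synthesis genes. They fall into 18 genes of the sterol branch, 10 genes of the fatty acid branch and 5 genes of regulation and sterol transport. A gene was tested when it had over 10 CPM (counts scaled to library size) in at least 2 of the 12 libraries, and 8273 genes passed, among them 32 of the 33. G1E-ER4 is a mouse line that lacks its own GATA-1, the master transcription factor of red cell development, and carries GATA-1 fused to the hormone-binding part of the estrogen receptor. β-estradiol (E2) switches the fusion on and starts erythroid differentiation. Thiamet-G (TMG) inhibits OGA, the enzyme that takes the sugar O-GlcNAc off proteins. The 4 groups of 3 libraries were cells given 10 µM TMG and 1 µM E2 (TMG_E2), cells given 1 µM E2 (E2), cells given 10 µM TMG (TMG), and untreated cells (Ctrl), with treatments lasting 30 h. Cells of all 4 groups carried the GATA-1ER fusion and grew with erythropoietin, stem cell factor and puromycin. They came from a single line. Separate cultures are not named for the 3 libraries of a group, so the p-values rest on a spread that may be technical.

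Cells build cholesterol from acetyl-CoA through mevalonate, the isoprenoid diphosphates, squalene and lanosterol, and build long-chain fatty acids from the same acetyl-CoA by carboxylation, chain synthesis, elongation and desaturation. Both branches are controlled by SREBP transcription factors, which are held in the endoplasmic reticulum by INSIG proteins when sterols are plentiful and carried to the Golgi by SCAP when sterols are low. Srebf2 encodes the SREBP known mainly for sterol genes, and Srebf1 the SREBPs known mainly for fatty acid genes. Red cell precursors make membrane while they divide, whereas mature red cells make no cholesterol and exchange it with plasma.

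The labels call the cells embryonic stem cells. Of 5 embryonic stem cell markers Sox2, Pou5f1 and Zfp42 were listed at 0 in every library and Nanog did not exceed 0.281 CPM. Dppa4 was the 1 of the 5 that passed the filter, at a mean of 50.0 CPM in TMG_E2, 49.7 CPM in E2, 79.8 CPM in TMG and 80.2 CPM in Ctrl. Of the erythroid marker genes 7 of 7 passed, Slc4a1 and Alas2 only through the libraries given E2. Library totals were between 17600000 and 23200000 expected counts, so that 3 counts corresponded to between 0.133 and 0.180 CPM. Insig1, which retains SREBPs in the endoplasmic reticulum, was listed at 0 counts in all 12 libraries and could not be tested. Genes that many cells express, such as Abcg1 and Mylip, were also listed at 0 throughout, so a gene listed at 0, Insig1 and the stem cell markers included, is not read as absent.

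Promoter sequences, from 250 bases before to 50 bases after the start, were taken from RefSeq on GRCm38.p6 and matched 26 of the 33 genes, with 33 windows. The genes without a window were Fdps, Fdft1, Sqle, Stard4, Scd1, Scd2 and Fads1. The 250 upstream bases of 5 promoters are shown because the sterol genes Hmgcs1, Idi1 and Hsd17b7 were called higher with TMG both with and without E2, while Elovl6 and Fasn of the fatty acid branch fell with E2. Capitals mark exact matches, on either strand, to the sterol regulatory element TCACNCCAC, the E-box CACGTG and the NF-Y box CCAAT, which reads ATTGG from the other strand. The windows lie at chr13:119690101-119690350 on the plus strand for Hmgcs1, chr13:8885356-8885605 on the plus strand for Idi1, chr1:169969206-169969455 on the minus strand for Hsd17b7, chr3:129532136-129532385 on the plus strand for Elovl6 and chr11:120824548-120824797 on the minus strand for Fasn. Each is written 5′ to 3′ in the direction of transcription and ends at the base before the start.
Hmgcs1: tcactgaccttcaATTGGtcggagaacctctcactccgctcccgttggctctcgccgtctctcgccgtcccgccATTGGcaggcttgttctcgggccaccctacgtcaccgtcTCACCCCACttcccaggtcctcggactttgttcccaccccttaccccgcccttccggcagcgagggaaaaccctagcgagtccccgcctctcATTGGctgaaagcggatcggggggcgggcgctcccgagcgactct
Idi1: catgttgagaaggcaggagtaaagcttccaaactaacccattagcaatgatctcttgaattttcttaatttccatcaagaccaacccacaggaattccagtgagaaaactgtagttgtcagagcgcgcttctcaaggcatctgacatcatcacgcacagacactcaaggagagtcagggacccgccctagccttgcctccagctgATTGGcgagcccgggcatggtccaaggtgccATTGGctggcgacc
Hsd17b7: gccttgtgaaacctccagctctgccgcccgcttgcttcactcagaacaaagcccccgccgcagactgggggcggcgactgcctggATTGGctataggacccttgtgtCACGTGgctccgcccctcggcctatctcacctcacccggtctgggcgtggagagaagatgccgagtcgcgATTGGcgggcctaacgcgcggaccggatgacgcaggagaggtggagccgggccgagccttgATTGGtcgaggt
Elovl6: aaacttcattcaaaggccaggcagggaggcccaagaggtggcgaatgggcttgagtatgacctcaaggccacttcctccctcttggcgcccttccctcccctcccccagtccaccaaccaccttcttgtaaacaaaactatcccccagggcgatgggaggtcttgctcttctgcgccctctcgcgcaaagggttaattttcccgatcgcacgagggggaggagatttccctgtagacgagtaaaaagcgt
Fasn: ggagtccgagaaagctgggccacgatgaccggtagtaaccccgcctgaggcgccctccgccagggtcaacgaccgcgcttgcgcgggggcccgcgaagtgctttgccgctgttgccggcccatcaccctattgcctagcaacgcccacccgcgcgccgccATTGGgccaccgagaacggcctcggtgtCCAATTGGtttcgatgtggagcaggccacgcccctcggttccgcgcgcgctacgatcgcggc
The sterol regulatory element letters were found in the Hmgcs1 window alone among the 26 genes, 137 bases before the start, which is 3.03% of the members' windows against 1.24% of all 32851 windows. CCAAT was in 77.8% of the 18 sterol branch windows and 50% of the 8 fatty acid branch windows, against 37.4% of all windows. The 18 windows belong to 15 of the sterol genes and the 8 windows to 7 of the fatty acid genes. The SP1 letters GGGCGG were in 83.3% of the sterol windows and 50% of the fatty acid windows, against 35.7% of all windows. CACGTG was in 16.7% of the sterol windows and 12.5% of the fatty acid windows, against 7.15% of all windows, and stood 143 bases before the Hsd17b7 start. The GATA letters AGATAA were in no sterol window and in the Elovl1 window only of the fatty acid branch, against 11.2% of all windows. All 5 motifs were searched on both strands, none contains another, a pair of NF-Y matches on opposite strands overlaps in Fasn, and a match is a description of these letters, not of binding.

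Summed over its genes in TPM (transcript abundance corrected for transcript length), the sterol branch was higher and the fatty acid branch lower in every library given E2 than in every library without it. TPM carry no TMM scaling between libraries, unlike the CPM values and the tests, so the size of a group difference can differ between the scales. For example, Sc5d averaged 63.1 CPM in E2 and 55.5 CPM in Ctrl, but 41.7 TPM in E2 and 42.0 TPM in Ctrl. Ratios within a library do not depend on this scaling. The 18 sterol genes summed to 3810, 3370 and 3628 TPM in the TMG_E2 libraries, 3257, 2955 and 3220 TPM in the E2 libraries, 2689, 2465 and 2629 TPM in the TMG libraries, and 2343, 2281 and 2446 TPM in the Ctrl libraries. The 10 fatty acid genes summed to 1138, 1043 and 1053 TPM in the TMG_E2 libraries, 1133, 1058 and 1154 TPM in the E2 libraries, 1982, 1805 and 1967 TPM in the TMG libraries, and 2008, 1897 and 2016 TPM in the Ctrl libraries. The ratio of sterol to fatty acid sums was accordingly 3.23 to 3.44 in TMG_E2, 2.79 to 2.87 in E2, 1.34 to 1.37 in TMG and 1.17 to 1.21 in Ctrl, with no overlap between any groups. Replicate 2 had the lowest sum of both branches in each of the 4 groups. A few genes carried much of these sums. Fdps, the farnesyl diphosphate synthase, averaged 766 TPM in E2 and 556 TPM in Ctrl cells. Idi1, the isopentenyl diphosphate isomerase, averaged 589 TPM in E2 and 268 TPM in Ctrl cells. Scd2, a stearoyl-CoA desaturase, averaged 323 TPM in E2 and 748 TPM in Ctrl cells. Scd2 was the most abundant of the 33 transcripts in Ctrl cells, and Fdps and Idi1 the most abundant in E2 cells. Without Fdps and Idi1 the sterol sum was 1878 to 2111 TPM in TMG_E2, 1679 to 1859 TPM in E2, 1557 to 1687 TPM in TMG and 1482 to 1609 TPM in Ctrl. The lowest E2 library then lay below the highest TMG library, so in unscaled TPM libraries with and without E2 were no longer fully apart. Whether this overlap would remain after TMM scaling was not tested. Without Scd2 the fatty acid sum was 737 to 789 TPM in TMG_E2, 755 to 820 TPM in E2, 1112 to 1224 TPM in TMG and 1179 to 1261 TPM in Ctrl. These are sums over chosen genes and were given no test.

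**Figure D1:**
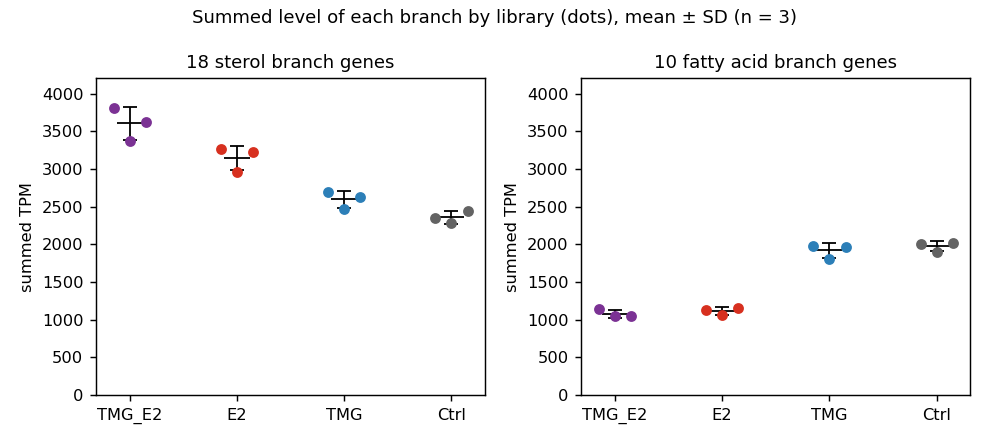
Summed TPM, without TMM scaling, of the 18 sterol genes (left) and the 10 fatty acid genes (right) in each library (dots). The mean and SD of the 3 libraries per group are shown. The sterol sum averaged 3602 in TMG_E2, 3144 in E2, 2594 in TMG and 2356 in Ctrl, and the fatty acid sum 1078 in TMG_E2, 1115 in E2, 1918 in TMG and 1974 in Ctrl.

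E2 was set against Ctrl to see how the lipid genes stood after GATA-1 activation. Of the 18 sterol genes 15 rose and 2 fell, and of the 10 fatty acid genes 9 fell and none rose, by edgeR's quasi-likelihood test at a Benjamini-Hochberg adjusted p under 0.05. Across all 8273 genes tested 41.5% rose and 41.2% fell, 82.7% in all, so that most genes changed here, and the branches differed in direction. The median log2 fold change was 0.50 over the sterol genes and -0.50 over the fatty acid genes, beside -0.00 over all genes tested. The CPM of the E2 and Ctrl libraries did not overlap for 16 of the 18 sterol genes and 9 of the 10 fatty acid genes, against 85.9% of all genes tested.

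In the mevalonate steps, 6 of 7 genes rose in E2 cells. Idi1 had 1200, 1091 and 1176 CPM in the E2 libraries, against 457, 447 and 477 CPM in the Ctrl libraries. All 3 E2 libraries lay far above the Ctrl libraries, at a log2 fold change of 1.33 ± 0.05 (SE; adjusted p = 1.1e-13). Mvk, the mevalonate kinase, had 82.8, 84.3 and 92.6 CPM in the E2 libraries, against 41.2, 37.8 and 39.1 CPM in the Ctrl libraries. These groups were also well apart, at log2 1.14 ± 0.06 (adjusted p = 1.06e-11). Mvd, the decarboxylase of the pathway, rose by log2 0.69, Fdps by 0.66 and Pmvk, the phosphomevalonate kinase, by 0.40. Hmgcs1, the synthase that makes the HMG-CoA from which mevalonate is formed, had 579, 534 and 596 CPM in the E2 libraries, against 485, 483 and 541 CPM in the Ctrl libraries. Its groups overlapped, and its rise of log2 0.18 ± 0.06 (adjusted p = 0.0128) was lost without scaling factors (0.08, adjusted p = 0.209), without E2 replicate 3 (adjusted p = 0.0525) and without Ctrl replicate 2 (adjusted p = 0.05). Acat2, the thiolase of the first step, was the only sterol gene not called, at log2 -0.02 ± 0.07 (adjusted p = 0.741).

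The 3 genes that lead to lanosterol all rose in E2 cells. Fdft1, the squalene synthase, rose by log2 0.90, Lss, the lanosterol synthase, by 0.50 and Sqle, the squalene epoxidase, by 0.31. Fdft1 shares 774 exon bases on the opposite strand with Ctsb, which encodes the protease cathepsin B and rose by log2 3.04 in the same comparison. The strand setting of the read assignment is not stated, so reads of this pair cannot be told apart with certainty.

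Of the 8 genes between lanosterol and cholesterol 6 rose and 2 fell. Msmo1, the methylsterol monooxygenase, had 395, 367 and 391 CPM in the E2 libraries, against 182, 187 and 210 CPM in the Ctrl libraries. Hsd17b7, a reductase of the sterol ring, had 87.6, 87 and 92.2 CPM in the E2 libraries, against 44.1, 44.9 and 48.4 CPM in the Ctrl libraries. The groups of both genes were far apart, at log2 0.99 ± 0.05 for Msmo1 (adjusted p = 6.53e-12) and 0.96 ± 0.05 for Hsd17b7 (adjusted p = 2.85e-12). Ebp, the sterol isomerase, rose by log2 0.94, Nsdhl, a sterol dehydrogenase, by 0.51, Cyp51, the lanosterol demethylase, by 0.30 and Sc5d, a sterol desaturase, by 0.18. The call of Sc5d was lost without scaling factors (adjusted p = 0.187) and without E2 replicate 3 (adjusted p = 0.0546). Dhcr7, the reductase of the last step to cholesterol, and Tm7sf2, a sterol reductase, went the other way. They were singled out after their values were seen. Dhcr7 had 137, 122 and 133 CPM in the E2 libraries, against 219, 212 and 223 CPM in the Ctrl libraries, a fall of log2 -0.74 ± 0.06 (adjusted p = 2.08e-09). Tm7sf2 had 18.7, 15.9 and 19.6 CPM in the E2 libraries, against 21.1, 22.8 and 22.4 CPM in the Ctrl libraries, a fall of log2 -0.29 ± 0.08 (adjusted p = 0.00199). Neither gene's groups overlapped.

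In the fatty acid branch the falls in E2 cells ran from log2 -0.26 to -5.10. Scd1, a stearoyl-CoA desaturase, had 3.15, 2.06 and 1.82 CPM in the E2 libraries, against 93.8, 68.3 and 75.8 CPM in the Ctrl libraries. It was close to 0 in all 3 E2 libraries, at log2 -5.10 ± 0.22 (adjusted p = 3.97e-13). Scd1 was the only member that passed the expression filter through the libraries without E2 alone, so that a gene with its pattern had to differ. Elovl6, the elongase that extends palmitate to stearate, had 16.3, 14.4 and 14.6 CPM in the E2 libraries, against 94.7, 94.3 and 101 CPM in the Ctrl libraries. Its groups were as clearly apart, at log2 -2.68 ± 0.06 (adjusted p = 7.21e-17). Scd2 had 1269, 1175 and 1288 CPM in the E2 libraries, against 2579, 2438 and 2538 CPM in the Ctrl libraries, at log2 -1.02 ± 0.05 (adjusted p = 2.12e-12). Scd1 and Scd2 are close copies whose shared reads were divided by estimation. The Scd1 share of their joint TPM was 0.134% to 0.223% in TMG_E2, 0.158% to 0.282% in E2, 2.51% to 3.51% in TMG and 3.07% to 3.96% in Ctrl.

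The 3 genes of palmitate synthesis fell less. Acly, which releases cytosolic acetyl-CoA from citrate, fell by 0.52 on the log2 scale, Fasn, the fatty acid synthase, by 0.48 and Acaca, the acetyl-CoA carboxylase, by 0.30. The desaturases of polyunsaturated fatty acids, Fads2 and Fads1, were at log2 -0.53 and -0.26, and the elongase Elovl5 at -0.45, all called. Elovl1, an elongase of very long chains, was the exception at log2 0.10 ± 0.06 (adjusted p = 0.107). With the replicate number as a block Elovl1 was called higher, so that 1 fatty acid gene was then higher and 9 lower. The fit of the compared groups alone gave the same split.

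The genes of the SREBPs moved in opposite directions in E2 cells. Srebf2 had 583, 578 and 615 CPM in the E2 libraries, against 363, 332 and 361 CPM in the Ctrl libraries. It rose without overlap, at log2 0.75 ± 0.05 (adjusted p = 7.47e-11). Srebf1 had 132, 137 and 155 CPM in the E2 libraries, against 215, 191 and 199 CPM in the Ctrl libraries, and fell without overlap, at log2 -0.51 ± 0.07 (adjusted p = 5.08e-06). The ratio of Srebf2 to Srebf1 in TPM was 4.77 to 5.24 in TMG_E2, 4.50 to 5.00 in E2, 1.90 to 2.17 in TMG and 1.89 to 2.03 in Ctrl. Srebf1 shares 109 exon bases on the opposite strand with Rai1, which rose by log2 0.60. Stard4, a carrier of cholesterol through the cytosol, had 173, 178 and 178 CPM in the E2 libraries, against 149, 142 and 151 CPM in the Ctrl libraries, a rise of log2 0.26 ± 0.03 (adjusted p = 2e-06). Scap, the SREBP escort, had 58.1, 59.5 and 59.8 CPM in the E2 libraries, against 69.6, 63.8 and 67.5 CPM in the Ctrl libraries, a fall of log2 -0.18 ± 0.04 (adjusted p = 0.00124). The groups of both genes were apart.

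Markers of cell identity moved with E2 as well. The summed level of the 7 erythroid markers was 4355 to 4655 CPM in TMG_E2, 4669 to 4933 CPM in E2, 652 to 673 CPM in TMG and 594 to 620 CPM in Ctrl. The 3 mast cell markers, Il1rl1, Ms4a2 and Cpa3, summed to 0.321 to 0.599 CPM in TMG_E2, 0.280 to 0.910 CPM in E2, 77.4 to 93.9 CPM in TMG and 76.8 to 100 CPM in Ctrl. Of the erythroid markers Slc4a1 and Alas2 passed the filter through the libraries given E2 alone. The 3 mast cell markers passed it through the libraries without E2 alone. Genes with either pattern thus had to differ. The 3 megakaryocyte markers, none of which passed the filter, summed to 13.6 to 16.6 CPM in TMG_E2, 11.2 to 14.5 CPM in E2, 9.72 to 10.5 CPM in TMG and 6.75 to 9.47 CPM in Ctrl. Erythroid and megakaryocyte sums were thus higher and mast cell sums lower in every library given E2 than in every library without it. The megakaryocyte rise came from Gp9, at a mean of 0.809 CPM in Ctrl and 6.17 CPM in E2. Itga2b stood at 5.97 CPM in Ctrl and 5.93 CPM in E2, and Pf4 went the other way, at 1.22 CPM in Ctrl and 0.391 CPM in E2. The stem cell marker Dppa4 fell in E2 against Ctrl by 0.69 on the log2 scale. The part of these markers in the changes of the lipid genes was not tested. In bulk libraries fewer cells of a type and less RNA per cell cannot be told apart. The macrophage markers Csf1r, Marco and Cd14 were at 0 in every library and Adgre1 did not exceed 0.112 CPM.

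The abundance-weighted transcript length that the authors' quantification gives for each gene was compared between libraries with and without E2. Of the 32 genes tested 10 had a single constant length, and Msmo1 was the 1 gene whose lengths did not overlap, against 5.74% of all genes tested.

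**Figure D2:**
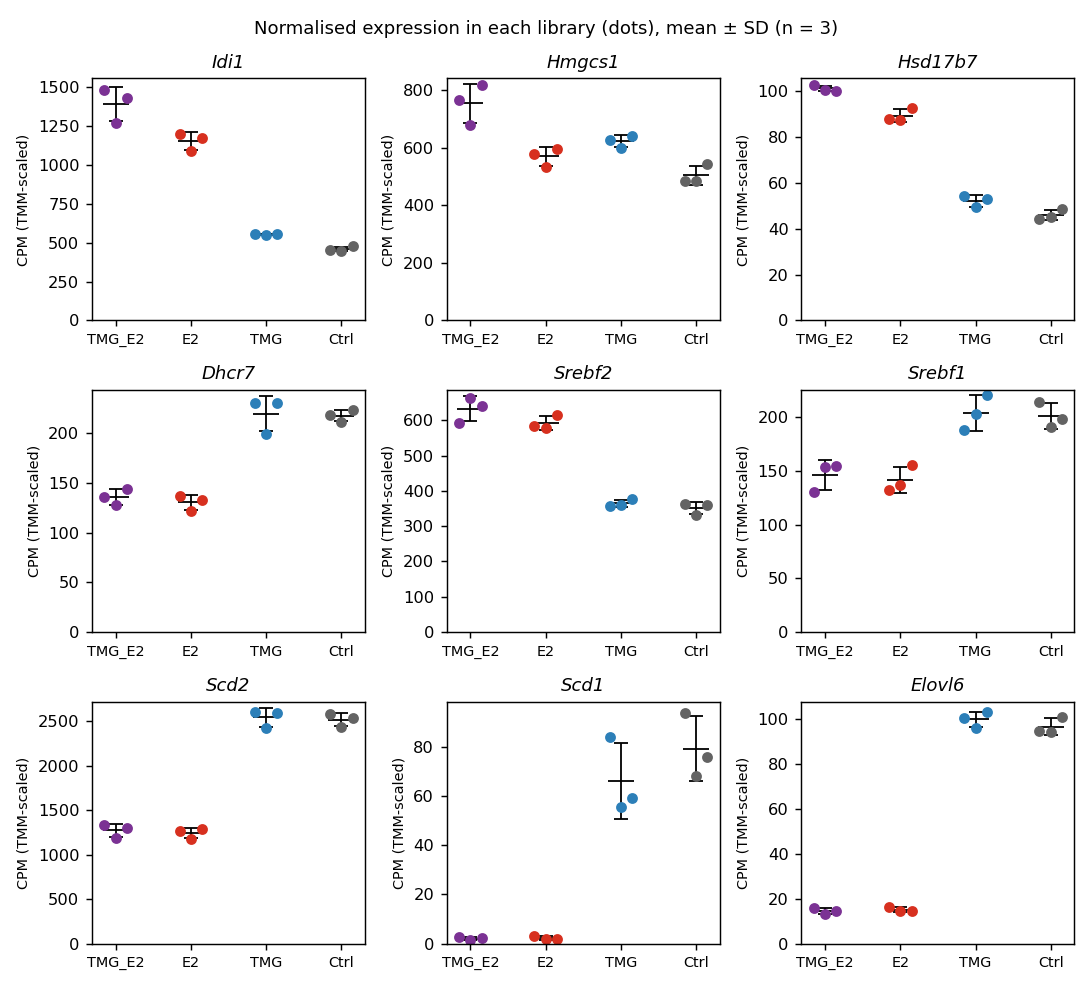
CPM after TMM scaling of 9 genes in each library (dots), with the mean and SD of 3 libraries per group and the axis from 0. Idi1, Hsd17b7 and Srebf2 were higher with E2, Dhcr7, Srebf1, Scd2, Scd1 and Elovl6 lower with E2, and Hmgcs1 higher with TMG both in E2-treated and in other cells.

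The comparison of TMG_E2 with TMG repeated the E2 contrast in cells given TMG, with libraries not used for E2 against Ctrl. Of the 18 sterol genes 15 rose and 2 fell, and of the 10 fatty acid genes 1 rose and 9 fell, against 40.9% of all genes tested higher and 41.8% lower, 82.7% in all. The median log2 fold change was 0.63 in the sterol branch and -0.55 in the fatty acid branch, beside -0.01 over all genes tested. The 15 higher sterol genes, the 2 lower sterol genes and the 9 lower fatty acid genes were the same as in E2 against Ctrl. Among all genes tested 3210 genes rose in both, which is 94.8% of those higher in TMG_E2 against TMG and 93.5% of those higher in E2 against Ctrl. Likewise 3216 genes fell in both, which is 93.1% of those lower in TMG_E2 against TMG and 94.4% of those lower in E2 against Ctrl. The groups did not overlap for 17 of the 18 sterol genes and 9 of the 10 fatty acid genes, against 81.8% of all genes tested.

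Idi1 had 1482, 1272 and 1431 CPM in the TMG_E2 libraries, against 554, 552 and 556 CPM in the TMG libraries, at log2 1.33 ± 0.05 (adjusted p = 9.98e-14). Mvk had 98, 108 and 114 CPM in the TMG_E2 libraries, against 46.7, 44.2 and 48.4 CPM in the TMG libraries, at log2 1.20 ± 0.06 (adjusted p = 3.88e-12). Both mevalonate genes were more than 2-fold higher in TMG_E2 than in TMG. Msmo1 had 464, 417 and 458 CPM in the TMG_E2 libraries, against 213, 215 and 214 CPM in the TMG libraries, at log2 1.06 ± 0.05 (adjusted p = 2.53e-12). Hsd17b7 had 102, 100 and 100 CPM in the TMG_E2 libraries, against 54.2, 49.3 and 52.8 CPM in the TMG libraries, at log2 0.95 ± 0.05 (adjusted p = 2.63e-12). None of these 4 genes had overlapping groups. The falls of Dhcr7 and Tm7sf2 were log2 -0.70 ± 0.06 and -0.32 ± 0.08.

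Scd1 had 2.64, 1.44 and 2.1 CPM in the TMG_E2 libraries, against 83.9, 55.4 and 59.2 CPM in the TMG libraries, at log2 -4.98 ± 0.23 (adjusted p = 9.97e-13). Elovl6 had 15.9, 13.4 and 14.7 CPM in the TMG_E2 libraries, against 100, 96.2 and 103 CPM in the TMG libraries, at log2 -2.76 ± 0.06 (adjusted p = 6.02e-17). Both were again low in every library given E2. Scd2 had 1332, 1193 and 1300 CPM in the TMG_E2 libraries, against 2611, 2422 and 2599 CPM in the TMG libraries, at 0.501-fold (adjusted p = 2.77e-12). Elovl1 was the fatty acid gene that rose, at log2 0.13 ± 0.06 (adjusted p = 0.0367), with groups that overlapped. That call was lost without TMG_E2 replicate 3 (0.06, adjusted p = 0.221), without TMG replicate 1 (adjusted p = 0.0563), without TMG replicate 2 (adjusted p = 0.137) and without scaling factors (0.03, adjusted p = 0.547).

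Of the regulators, Srebf2 had 593, 664 and 642 CPM in the TMG_E2 libraries, against 357, 359 and 376 CPM in the TMG libraries, a rise of log2 0.80 ± 0.05 (adjusted p = 3.17e-11). Srebf1 had 130, 153 and 155 CPM in the TMG_E2 libraries, against 188, 203 and 221 CPM in the TMG libraries, a fall of log2 -0.48 ± 0.07 (adjusted p = 9.94e-06). The opposite directions of the SREBP genes were thus seen with and without TMG. Scap had 48.8, 51.3 and 52.5 CPM in the TMG_E2 libraries, against 66.9, 63 and 66 CPM in the TMG libraries, a fall of log2 -0.36 ± 0.05 (adjusted p = 9.74e-07). Stard4 had 189, 194 and 194 CPM in the TMG_E2 libraries, against 150, 151 and 149 CPM in the TMG libraries, a rise of log2 0.36 ± 0.03 (adjusted p = 2.62e-08). None of the 4 genes had overlapping groups.

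**Figure D3:**
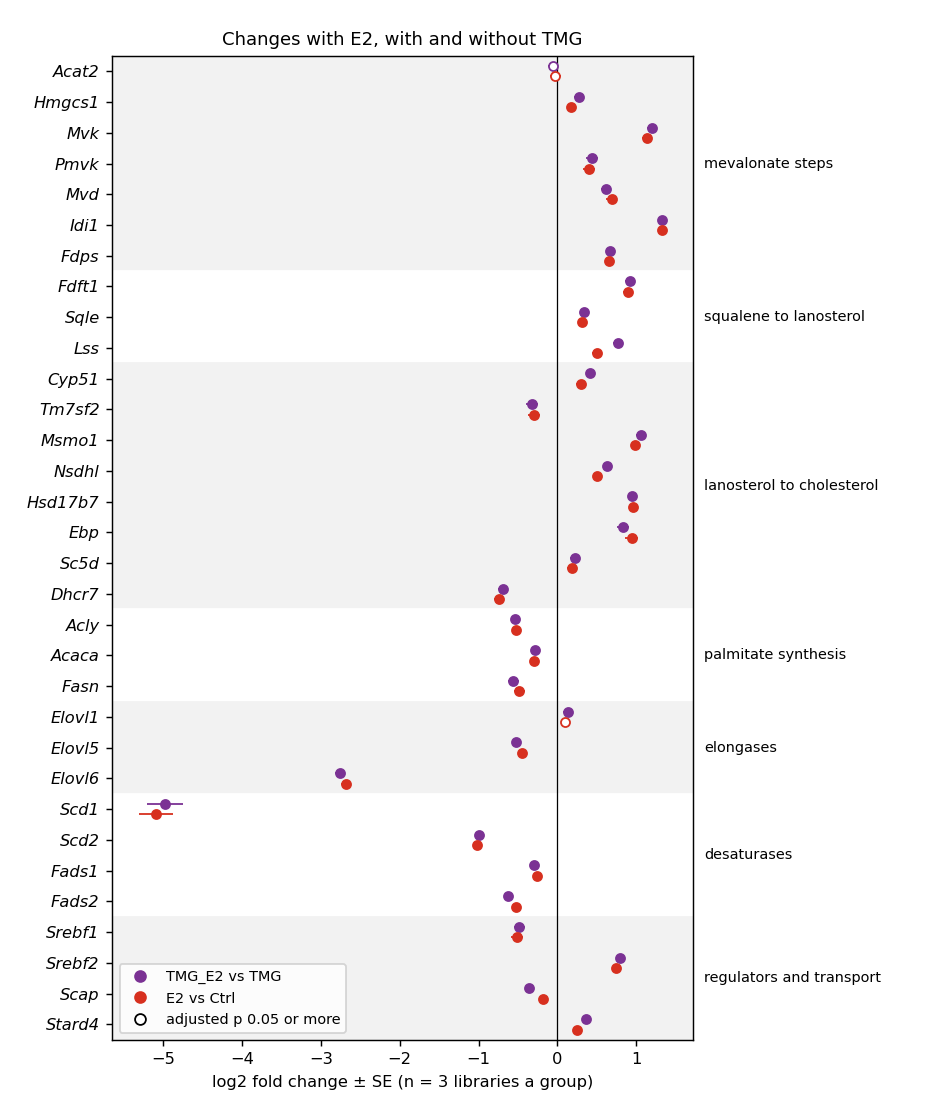
Log2 fold change with its SE for the 32 genes tested, for TMG_E2 against TMG and E2 against Ctrl (n = 3 libraries a group), ordered by role, with open circles where the adjusted p was 0.05 or more. Most sterol genes lie right of 0 and most fatty acid genes left of 0 in both comparisons, with Scd1 at -4.98 and -5.10.

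TMG was first set against Ctrl, that is, inhibition of OGA in cells not given E2. Of the 18 sterol genes 6 rose and none fell, against 3.01% of all genes tested higher and 2.14% lower, 5.15% in all. None of the 10 fatty acid genes and none of the 4 regulators tested was called. The median log2 fold change was 0.13 over the sterol genes, with 17 of 18 above 0, and -0.00 over the fatty acid genes, with 5 of 10 above 0, beside 0.00 over all genes tested. The groups did not overlap for 10 of the 18 sterol genes and 0 of the 10 fatty acid genes, against 28.7% of all genes tested.

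The rises of the sterol genes with TMG were small and came mostly from the early steps, with 4 of 7 mevalonate genes called. Idi1 had 554, 552 and 556 CPM in the TMG libraries, against 457, 447 and 477 CPM in the Ctrl libraries, at log2 0.27 ± 0.05 (adjusted p = 0.00593). Fdps had 477, 425 and 459 CPM in the TMG libraries, against 386, 371 and 382 CPM in the Ctrl libraries, at log2 0.26 ± 0.05 (adjusted p = 0.00633). Hmgcs1 had 627, 599 and 640 CPM in the TMG libraries, against 485, 483 and 541 CPM in the Ctrl libraries, at log2 0.31 ± 0.06 (adjusted p = 0.00776). In these 3 genes every TMG library exceeded every Ctrl library, and the rise was 1.19-fold to 1.24-fold. Fdft1 had 241, 209 and 234 CPM in the TMG libraries, against 187, 192 and 200 CPM in the Ctrl libraries, at log2 0.24 ± 0.06 (adjusted p = 0.0288). Its partner on the other strand, Ctsb, was at log2 0.07 ± 0.04 and was not called. Mvk rose by log2 0.24 and Hsd17b7 by 0.19, and the 12 sterol genes not called were between -0.03 and 0.17. With 1 library left out the count of sterol genes called was 3 to 5, and it was 3 without TMG replicate 1, TMG replicate 3, Ctrl replicate 1 or Ctrl replicate 2. Idi1, Fdps and Hmgcs1 were called with any of the 6 libraries left out, at adjusted p up to 0.0464. Mvk lost its call whichever of the 6 libraries was left out, at adjusted p 0.0609 to 0.153. Fdft1 was called only without TMG replicate 2. The Hsd17b7 call was lost without TMG replicate 1 (adjusted p = 0.16), TMG replicate 3 (0.105), Ctrl replicate 1 (0.146) or Ctrl replicate 2 (0.125). Without scaling factors neither Hsd17b7 (adjusted p = 0.0626) nor Mvk (0.0507) was called, and Mvk was not called with the filterByExpr filter (0.0504).

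Among the fatty acid genes the 3 with the smallest p in TMG against Ctrl were Scd1, Elovl1 and Acly. Scd1 had 83.9, 55.4 and 59.2 CPM in the TMG libraries, against 93.8, 68.3 and 75.8 CPM in the Ctrl libraries, at log2 -0.26 ± 0.13 (adjusted p = 0.31). Elovl1 had 123, 114 and 127 CPM in the TMG libraries, against 111, 110 and 118 CPM in the Ctrl libraries, at log2 0.10 ± 0.06 (adjusted p = 0.375). Acly had 710, 633 and 704 CPM in the TMG libraries, against 712, 687 and 729 CPM in the Ctrl libraries, at log2 -0.06 ± 0.05 (adjusted p = 0.591). The groups of all 3 overlapped, and no fatty acid gene was under an unadjusted p of 0.05 by edgeR or called by DESeq2. Apart from Scd1, whose 95% interval reached -0.51, the intervals of the log2 fold changes of the fatty acid genes lay between -0.21 and 0.21. Scd1 was called lower without TMG replicate 1 (log2 -0.47, adjusted p = 0.0374) and with no expression filter (log2 -0.25, adjusted p = 0.0432).

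No regulator was called with TMG alone, none was under an unadjusted p of 0.05 by edgeR, and none was called by DESeq2. Srebf2 had 357, 359 and 376 CPM in the TMG libraries, against 363, 332 and 361 CPM in the Ctrl libraries, at log2 0.05 ± 0.05 (adjusted p = 0.629). Srebf1 had 188, 203 and 221 CPM in the TMG libraries, against 215, 191 and 199 CPM in the Ctrl libraries, at log2 0.02 ± 0.07 (adjusted p = 0.934). Both SREBP genes had overlapping groups. Scap had 66.9, 63 and 66 CPM in the TMG libraries, against 69.6, 63.8 and 67.5 CPM in the Ctrl libraries, and Stard4 had 150, 151 and 149 CPM in the TMG libraries, against 149, 142 and 151 CPM in the Ctrl libraries, with log2 fold changes of -0.04 and 0.02. The 95% intervals of the 4 log2 fold changes lay between -0.12 and 0.16. Some markers moved in the same comparison, with 2 of 7 erythroid genes higher, Alas2 by log2 1.01, and 2 of 3 mast cell genes lower. Alas2 averaged 4.38 CPM in TMG and 2.17 CPM in Ctrl, under the 10 CPM of the filter, which it passed through the libraries given E2. The other mast cell gene, Il1rl1, was the most abundant and was not called, at log2 0.25 (adjusted p = 0.0657). The mast cell sums overlapped, at 77.4 to 93.9 CPM in TMG and 76.8 to 100 CPM in Ctrl. The part of these markers in the sterol changes was not tested.

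TMG_E2 was set against E2 for the same in differentiating cells, and no library was shared with TMG against Ctrl. Of the 18 sterol genes 10 rose and none fell, against 5.61% of all genes tested higher and 7.14% lower, 12.8% in all. None of the 10 fatty acid genes was called by edgeR or DESeq2. The median log2 fold change was 0.19 over the sterol genes, with 18 of 18 above 0, and -0.04 over the fatty acid genes, with 2 of 10 above 0, beside 0.00 over all genes tested. The groups did not overlap for 10 of the 18 sterol genes and 2 of the 10 fatty acid genes, against 28.5% of all genes tested. The 10 genes included each of the 6 that rose with TMG alone, Idi1, Fdps, Hmgcs1, Fdft1, Mvk and Hsd17b7, which is 60.0% of the 10 and 100% of the 6. Among all genes tested 92 rose in both comparisons, which is 19.8% of the 464 higher in TMG_E2 against E2 and 36.9% of the 249 higher in TMG against Ctrl.

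Hmgcs1 moved most among the sterol genes. It had 765, 679 and 815 CPM in the TMG_E2 libraries, against 579, 534 and 596 CPM in the E2 libraries, a rise of log2 0.40 ± 0.06 or 1.32-fold (adjusted p = 0.000613). Idi1 had 1482, 1272 and 1431 CPM in the TMG_E2 libraries, against 1200, 1091 and 1176 CPM in the E2 libraries, at log2 0.27 ± 0.05 (adjusted p = 0.00242). Fdps had 728, 677 and 757 CPM in the TMG_E2 libraries, against 630, 571 and 599 CPM in the E2 libraries, at log2 0.26 ± 0.05 (adjusted p = 0.00247). In all 3 genes the lowest TMG_E2 library lay above the highest E2 library. Mvk had 98, 108 and 114 CPM in the TMG_E2 libraries, against 82.8, 84.3 and 92.6 CPM in the E2 libraries, at log2 0.30 ± 0.06 (adjusted p = 0.00281), likewise without overlap. Of the later steps, Fdft1 rose by log2 0.27, Lss by 0.24, Msmo1, Nsdhl and Cyp51 by 0.21 each and Hsd17b7 by 0.18. The 8 sterol genes not called were between 0.04 and 0.16, among them Dhcr7 and Tm7sf2, which fell with E2. Without E2 replicate 2 the count of sterol genes called was 5, those 5 being Hmgcs1, Mvk, Idi1, Fdps and Fdft1, and with any other library left out it was 9 to 14. Cyp51 was also not called without TMG_E2 replicate 1 (adjusted p = 0.0544), without TMG_E2 replicate 3 (0.0633) or with the compared groups alone (0.0756), and Nsdhl was not called with the compared groups alone (0.0629).

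In the fatty acid branch Elovl1 and Fasn were the 2 genes under an unadjusted p of 0.05 in TMG_E2 against E2. Elovl1 had 127, 125 and 147 CPM in the TMG_E2 libraries, against 117, 124 and 123 CPM in the E2 libraries, at log2 0.13 ± 0.06 (adjusted p = 0.138). Fasn had 620, 653 and 647 CPM in the TMG_E2 libraries, against 688, 656 and 792 CPM in the E2 libraries, at log2 -0.15 ± 0.07 (adjusted p = 0.164). Both pairs of groups were just apart. With the replicate number as a block these 2 were called, Elovl1 higher (adjusted p = 0.0439) and Fasn lower (adjusted p = 0.0334). Elovl5 had 84.5, 72 and 80.4 CPM in the TMG_E2 libraries, against 89.2, 81.3 and 83.2 CPM in the E2 libraries, at log2 -0.10 ± 0.05 (adjusted p = 0.264), with overlap. Apart from Scd1, which had 1.44 to 2.64 CPM in TMG_E2 and 1.82 to 3.15 CPM in E2 and a 95% interval between -0.96 and 0.67, the intervals of the log2 fold changes of the fatty acid genes lay between -0.29 and 0.24.

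Of the regulators 1 fell and 1 rose with TMG in E2-treated cells. Scap had 48.8, 51.3 and 52.5 CPM in the TMG_E2 libraries, against 58.1, 59.5 and 59.8 CPM in the E2 libraries, a fall of log2 -0.22 ± 0.05 (adjusted p = 0.00527) without overlap. Stard4 had 189, 194 and 194 CPM in the TMG_E2 libraries, against 173, 178 and 178 CPM in the E2 libraries, a rise of log2 0.13 ± 0.03 (adjusted p = 0.0213) without overlap. The Stard4 call was lost without E2 replicate 1 (adjusted p = 0.0739) and without E2 replicate 3 (adjusted p = 0.0548), and also with no filter (0.0527) and with the compared groups alone (0.105). Srebf2 had 593, 664 and 642 CPM in the TMG_E2 libraries, against 583, 578 and 615 CPM in the E2 libraries, at log2 0.10 ± 0.05 (adjusted p = 0.183), and it was called without TMG_E2 replicate 1 (0.15, adjusted p = 0.0378). Srebf1 had 130, 153 and 155 CPM in the TMG_E2 libraries, against 132, 137 and 155 CPM in the E2 libraries, at log2 0.04 ± 0.07 (adjusted p = 0.756). Both SREBP genes had overlapping groups. Of the erythroid markers Alas2 was higher and Slc4a1 lower in TMG_E2 than in E2, and their part in the sterol changes was not tested.

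**Figure D4:**
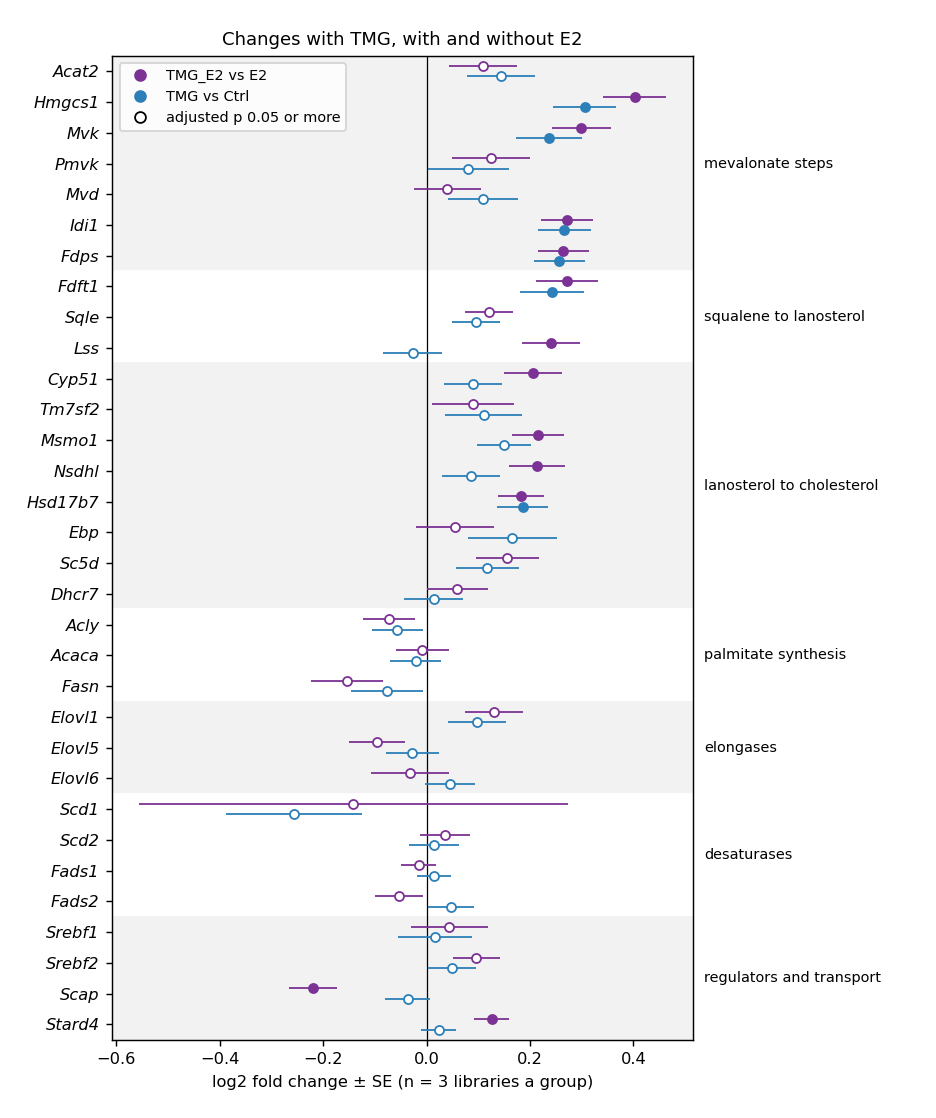
Log2 fold change with its SE for the 32 genes tested, for TMG_E2 against E2 and TMG against Ctrl (n = 3 libraries a group), ordered by role, with open circles where the adjusted p was 0.05 or more. Sterol genes lie between 0.04 and 0.40 in TMG_E2 against E2 and between -0.03 and 0.31 in TMG against Ctrl, and the fatty acid genes lie on both sides of 0.

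Whether TMG acted differently in E2-treated cells was tested as the difference between its log2 fold changes with and without E2. No sterol gene, no fatty acid gene and no regulator passed, against 0.931% of all genes tested, and DESeq2 called none of the 32 either. Under an unadjusted p of 0.05 were Lss of the sterol branch and Scap and Stard4 of the regulators. Lss had 511, 461 and 528 CPM in the TMG_E2 libraries, against 432, 392 and 445 CPM in the E2 libraries, and it had 303, 272 and 304 CPM in the TMG libraries, against 295, 294 and 308 CPM in the Ctrl libraries. The TMG libraries overlapped with Ctrl and the TMG_E2 libraries did not overlap with E2, and the difference in log2 fold change was 0.27 ± 0.08 (adjusted p = 0.148). With no filter (adjusted p = 0.0171) and with the replicate number as a block (adjusted p = 0.00729) this difference passed for Lss. The next sterol genes by p were Nsdhl, at a difference of 0.13 ± 0.08, Cyp51, at 0.12 ± 0.08, and Hmgcs1, at 0.10 ± 0.09. Nsdhl had 179, 153 and 172 CPM in TMG_E2, 150, 137 and 148 CPM in E2, 110, 103 and 113 CPM in TMG, and 99.2, 102 and 106 CPM in Ctrl. Cyp51 had 263, 229 and 266 CPM in TMG_E2, 227, 205 and 226 CPM in E2, 189, 187 and 194 CPM in TMG, and 172, 173 and 189 CPM in Ctrl. Both genes were apart between TMG_E2 and E2 and overlapped between TMG and Ctrl, but their differences had adjusted p values of 0.603 and 0.653. Of the fatty acid genes Fads2 was at a difference of -0.10 ± 0.06, Elovl5 at -0.07 ± 0.07 and Elovl6 at -0.08 ± 0.09. Elovl5 had 115, 113 and 112 CPM in TMG, and 111, 114 and 120 CPM in Ctrl, overlapping like its TMG_E2 and E2 values given above. Fads2 had 193, 178 and 196 CPM in TMG_E2, 198, 186 and 205 CPM in E2, 292, 278 and 307 CPM in TMG, and 286, 277 and 284 CPM in Ctrl, and its TMG_E2 and E2 values overlapped. The difference of TMG effects was -0.18 ± 0.06 for Scap (adjusted p = 0.23), 0.10 ± 0.05 for Stard4 (adjusted p = 0.443), 0.05 ± 0.07 for Srebf2 and 0.03 ± 0.10 for Srebf1.

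Other genes of lipid handling were listed to show what surrounded the pathway. Their counts in E2 against Ctrl stand beside 41.5% of all genes tested higher and 41.2% lower, and nothing particular to these lists is read from them. In E2 against Ctrl, 5 of 6 genes of SREBP processing and turnover rose and 1 fell. Fbxw7, the ubiquitin ligase subunit that marks nuclear SREBPs for destruction, rose by log2 1.60 ± 0.05, and Mbtps2, the protease that makes the last SREBP cut, was at -1.19 ± 0.08. Of the 5 LXR and efflux genes tested 2 rose and 2 fell. Abca1, the pump that exports cholesterol to apolipoprotein, averaged 4.88 ± 0.629 CPM in E2 and 90.8 ± 3.09 CPM in Ctrl (SD, n = 3), at log2 -4.22 ± 0.08, and Abcg4, another sterol exporter, rose by 2.13 ± 0.06. Of 5 storage and transport genes 2 rose, most Npc2, the lysosomal cholesterol carrier (log2 1.12), and 2 fell, most Nceh1, a cholesteryl ester hydrolase (-1.94). Nceh1 averaged 2.80 CPM in TMG_E2, 3.17 CPM in E2, 11.2 CPM in TMG and 12.2 CPM in Ctrl. Abca1 and Nceh1 passed the filter through the libraries without E2 alone, so that genes with their pattern had to differ. Of 8 genes that use isoprenoids 5 rose, most Pggt1b, a subunit of geranylgeranyl transferase (0.78), and 3 fell, most Pdss1, a subunit of the enzyme that makes the ubiquinone tail (-0.68). Of 7 genes for acetyl-CoA, NADPH and the elongation cycle 1 rose, Hacd3, a dehydratase of elongation (0.37), and 3 fell, most Me1, the cytosolic malic enzyme (-1.09). Of 9 genes of glycerolipid synthesis 5 rose, most Ptdss2, a phosphatidylserine synthase (3.23), and 3 fell, most Chka, a choline kinase (-0.51). In TMG_E2 against TMG, where 40.9% of all genes tested were higher and 41.8% lower, the same genes moved most in each list, with Fbxw7 at 1.59, Mbtps2 at -1.15, Abcg4 at 1.82, Abca1 at -3.84, Npc2 at 1.22, Nceh1 at -1.99, Pggt1b at 0.71, Pdss1 at -0.79, Hacd3 at 0.48, Me1 at -1.04, Ptdss2 at 3.33 and Chka at -0.57.

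With TMG 5.15% of all genes tested were called against Ctrl, and 12.8% in TMG_E2 against E2. In TMG against Ctrl, Abcg4 rose by log2 0.24 ± 0.07 (adjusted p = 0.0395) and Gpam, the acyltransferase that starts glycerolipid synthesis, was at -0.25 ± 0.07 (adjusted p = 0.04), and no other gene of the 6 lists was called. In TMG_E2 against E2, Abca1 averaged 7.05 ± 1.02 CPM in TMG_E2 and 4.88 ± 0.629 CPM in E2 (SD, n = 3), a rise of log2 0.55 ± 0.11 (adjusted p = 0.005). Both means are under the 10 CPM of the filter, which Abca1 passed through the libraries without E2. In the same comparison Npc2 rose by 0.12, Acss2, the cytosolic acetyl-CoA synthetase, by 0.17 and Lpin1, a phosphatidate phosphatase, by 0.21, and Ptdss1, another phosphatidylserine synthase, was at -0.19. None of the 6 genes of SREBP processing and none of the 8 isoprenoid users was called with TMG in either comparison.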

How the data were processed

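Stranded polyA RNA libraries, 12 in all, were sequenced as read pairs. Per the labels' design text, the authors checked reads with FastQC 0.11.2, aligned them to GRCm38 and quantified them with RSEM 1.2.22, and used EdgeR 3.14.0 (R 3.2.2). Bowtie2 is named too, per the submitters' processing notes. Per the file headers, the deposited files hold expected counts, TPM, FPKM and an abundance-weighted transcript length for 32699 genes. The expected counts deposited by the authors divide reads that match several genes and need not be whole, so they were rounded here. The deposited TPM values, which carry no TMM scaling, were used for levels between genes and for the branch sums and ratios. The deposited FPKM values were not used. The strand setting of RSEM is not given.

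Genes with over 10 CPM in at least 2 of 12 libraries were kept (8273), as in the design text. Counts were scaled by TMM and all 12 libraries fitted together with edgeR 4.0.16 (quasi-likelihood) in R 4.3.3, with Benjamini-Hochberg adjustment over all 8273 genes and a threshold of 0.05. The SE of a log2 fold change is its size divided by the square root of F, and SDs are over 3 libraries. The step was tested on simulated data, with a required recovery that did not cover changes as small as those of the sterol genes with TMG. Replicate libraries differed by more than sampling noise, and most in TMG_E2. Chi-square per degree of freedom between 2 replicates was 7.10 to 10.7 in TMG_E2, against 2.22 to 3.56 in the other groups. The fit shares its estimate of the spread over all 4 groups, so that estimate may be too small for TMG_E2. Groups were taken from the sample titles. DESeq2 1.42.0, other scalings, other filters, a replicate block, fits of the compared groups alone and fits without each library were the alternatives.

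Same-numbered libraries deviated together to differing degrees, with positive correlations in every pair. These were 0.108 to 0.278 for E2 and Ctrl, 0.182 to 0.285 for TMG_E2 and E2, and 0.149 to 0.525 for TMG_E2 and TMG. For TMG and Ctrl they were 0.0295 to 0.188. The replicate numbers come from the titles, and the labels do not say what they mark.

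The members, their roles and the other lists were chosen with earlier results of these data known. Values by library are given for the 4 sterol and 3 fatty acid genes of smallest p in each comparison and for the regulators, and other lists are named by their called genes with the largest rise and fall. Promoters and gene positions are from RefSeq (GRCm38.p6), and exon overlaps from GENCODE on GRCm38.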

Additional observations from a re-analysis of the deposited data

How the results depend on the processing

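Sterol genes called in E2 against Ctrl numbered 15 to 17 under every alternative, and 17 in TMG_E2 against TMG under each, though 1 more of these was lower without scaling factors (14 higher and 3 lower). In TMG against Ctrl the count was 6 and ran from 4 to 8 across alternatives with all libraries, and from 3 to 5 without single replicates. In TMG_E2 against E2 it was 10 and ran from 8 to 12, and from 5 to 14 without single replicates. For the difference of TMG effects, 1 sterol gene, Lss, was called with no filter (adjusted p = 0.0171) and with the replicate block (0.00729), against 0. The replicate block gave 8 sterol genes in TMG against Ctrl and 12 in TMG_E2 against E2. Fatty acid genes called in TMG against Ctrl were 1, Scd1, with no filter and with the replicate block (log2 -0.27, adjusted p = 0.00216), and 0 to 1 without single replicates. In TMG_E2 against E2 they were 1, Fasn, with no filter and 2 with the replicate block. The cause was not tested.

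Over all genes, TMG against Ctrl gave 426 calls, 675 with the block, 749 with the compared groups alone, and 196 to 257 without single replicates. TMG_E2 against E2 gave 1055, 472 with the compared groups alone, and 656 to 1160 without single replicates. The difference of TMG effects gave 77, 178 with no filter, 48 with filterByExpr, 171 with the block, and 18 to 161 without single replicates. Without scaling factors the median of all genes shifted to -0.10 in E2 against Ctrl and -0.11 in TMG_E2 against TMG, and the share of calls that were higher was 43.6% against 58.5% in TMG against Ctrl and 31.3% against 44.0% in TMG_E2 against E2. Signs turned only in values that were not called. Srebf1 in TMG against Ctrl was at -0.00 without scaling factors and between -0.04 and 0.07 without single replicates, Stard4 there between -0.00 and 0.04, Srebf1 in TMG_E2 against E2 between -0.00 and 0.13, and in the difference of TMG effects Elovl5 between -0.11 and 0.00 and Srebf1 between -0.03 and 0.12. With 3 libraries a group, the smallest log2 fold change called among the members was 0.13, for Elovl1 in TMG_E2 against TMG and Stard4 in TMG_E2 against E2.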

Other observations

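Exons of 11 members overlap another annotated gene, and for 7 of them that gene is also counted. Besides Fdft1 and Srebf1 these include Cyp51, which shares 166 exon bases with Akap9 on the opposite strand. Akap9 was at log2 0.62 ± 0.08 in E2 against Ctrl and 0.01 ± 0.08 in TMG_E2 against E2. Elovl1 shares 53 bases with Cdc20, which was at log2 -0.03 ± 0.04 in E2 against Ctrl. Tm7sf2 shares 14 bases on the same strand with Vps51, which was at log2 0.18 ± 0.06 in E2 against Ctrl, while Tm7sf2 fell. Lss shares 150 bases on the opposite strand with 4930483K19Rik, which is also counted. Among members whose overlapping gene is not counted, Hmgcs1 shares 458 bases with Gm48342 and Idi1 323 bases with Gm48574, both on the opposite strand. Fdps shares 197 bases on the same strand with Gm43738, which is not counted either.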
